A study of Mus musculus with 5 samples.

Results

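T-box transcription factors are named for the DNA-binding domain they share. The genes described here were T, Tbx3, Tbx4, Tbx5, Tbx6, Tbx18 and Tbx20, followed from mouse embryonic stem cells (ESCs) through mesoderm to cultures of heart muscle cells. They were taken as every named probe of these 7 gene symbols, whatever the case of the letters, which gave 8 probes among the 26423 on each array and 7 genes among 17742. Tbx18 had 2 probes and each of the other members had 1. The rule uses no measured value. The study asked what follows when Linc1405, a long non-coding RNA that its title joins in a complex with the T-box factor Eomes, is knocked down on the way to cardiomyocytes.

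Each group was 1 culture on 1 single-colour array. The ESCs, at day 0, were the control genotype of the mouse line 46C, grown with 15% serum and leukaemia inhibitory factor on feeder cells that were taken off before harvest. The day 4 groups, called mesoderm in the labels, were Linc1405 knockdown cells (MES_1405KIpA) and control cells (MES_Ctrl), both in serum-free medium that held 0.2 ng/ml Bmp4, 5 ng/ml Activin A and 5 ng/ml VEGF. The day 10 groups, called cardiomyocytes in the labels, were knockdown cells (CM_1405KIpA) and control cells (CM_Ctrl), both given 10 ng/ml bFGF, 5 ng/ml VEGF and 25 ng/ml FGF10. The sources used here give neither the meaning of KIpA nor whether the knockdown line is 1 clone.

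Levels are given as normalized intensity, the deposited array intensity after quantile normalization over the 5 arrays, and differences as log2 differences with a floor of 100. A gene was counted as higher or lower where the difference was at least 2-fold and its brighter array reached the 50th percentile of all values, a normalized intensity of 572. With 1 array a group there was no spread between cultures and no test, and so few arrays limit the precision. The only error at hand was how far 2 probes of 1 gene disagree in a log2 difference, given as the SD for 1 probe (the between-probe SD). It was 0.21 for the knockdown comparison at day 4, from 1035 genes, and 0.27 at day 10, from 1078 genes. It was 0.61 for control day 4 against ESCs and 0.74 for control day 10 against control day 4, and it says nothing of how cultures vary. Linc1405 has no named probe here, so the knockdown itself was not checked.

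The labelled cell types were set against their markers. All 13 measured pluripotency genes were at least 2-fold lower in control day 4 cells than in ESCs, and 8 of 9 measured sarcomere genes were at least 2-fold higher in control day 10 cells than in control day 4 cells. Markers of other cell types were also above the filter at day 10, and a few bright probes carry much of each sum. Summed over 8 liver-type endoderm genes, the normalized intensity was 27387 in knockdown and 187327 in control day 10 cells, over 12 epicardium genes it was 172247 in knockdown and 59795 in control cells, and over 9 sarcomere genes it was 378893 in knockdown and 639462 in control cells. In whole cultures, fewer cells of a type and less RNA per cell cannot be told apart.

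T, or brachyury, is the founding T-box gene and drives mesoderm formation in the primitive streak. Tbx6 is needed for paraxial mesoderm, and the tissue that lacks it turns neural in the mouse embryo. Tbx3 takes part in stem cell self-renewal and later represses chamber genes in the conduction system of the heart. Tbx4 is known from the hindlimb bud and the allantois, and Tbx5 from the forelimb bud and the heart. Tbx20 is a cardiac factor that can bind Gata4 and Nkx2-5, and Tbx18 marks the epicardium and the sinus horns.

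The 250 bases before an annotated transcript start are shown for Tbx4, Tbx18, Tbx20, T and Tbx6. These are the 5 of the 7 members that RefSeq's annotation of GRCm38.p6 matched, and no window was at hand for Tbx3 and Tbx5. Tbx4, Tbx18 and Tbx20 stood 2-fold apart between knockdown and control cells. T and Tbx6 were at their highest at day 4 in control cells, as was Tbx3. The windows run 5′ to 3′ on the strand of the gene. Capitals mark matches on either strand to GGTGT, the core of the T-box motif, to CCAAT, to the TATA box TATAAA and to the Hox-type motif TGATNNAT.
Tbx4: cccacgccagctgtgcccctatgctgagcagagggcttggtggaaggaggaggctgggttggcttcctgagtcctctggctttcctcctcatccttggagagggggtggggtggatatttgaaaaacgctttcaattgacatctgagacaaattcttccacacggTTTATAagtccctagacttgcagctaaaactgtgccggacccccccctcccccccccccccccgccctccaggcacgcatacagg
Tbx18: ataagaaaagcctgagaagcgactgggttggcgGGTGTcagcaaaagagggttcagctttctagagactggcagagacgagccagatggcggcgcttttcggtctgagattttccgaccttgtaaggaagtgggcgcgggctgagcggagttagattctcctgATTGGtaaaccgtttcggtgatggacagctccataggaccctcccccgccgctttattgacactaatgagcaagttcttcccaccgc
Tbx20: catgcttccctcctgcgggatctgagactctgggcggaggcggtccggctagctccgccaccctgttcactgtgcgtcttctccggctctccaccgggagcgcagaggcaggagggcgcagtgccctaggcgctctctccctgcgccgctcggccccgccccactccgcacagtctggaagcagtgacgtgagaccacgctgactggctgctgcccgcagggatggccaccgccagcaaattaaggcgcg
T: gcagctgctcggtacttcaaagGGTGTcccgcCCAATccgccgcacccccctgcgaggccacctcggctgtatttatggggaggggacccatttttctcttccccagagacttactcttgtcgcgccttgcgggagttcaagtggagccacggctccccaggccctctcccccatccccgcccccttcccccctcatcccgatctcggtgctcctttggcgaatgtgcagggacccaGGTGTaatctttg
Tbx6: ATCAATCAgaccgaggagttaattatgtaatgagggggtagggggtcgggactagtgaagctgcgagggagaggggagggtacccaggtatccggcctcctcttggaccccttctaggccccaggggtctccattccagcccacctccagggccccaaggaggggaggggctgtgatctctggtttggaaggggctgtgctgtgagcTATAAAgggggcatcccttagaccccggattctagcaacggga
The windows are chr11:85896515-85896764 on the plus strand for Tbx4, chr9:87731261-87731510 on the minus strand for Tbx18, chr9:24774304-24774553 on the minus strand for Tbx20, chr17:8434173-8434422 on the plus strand for T and chr7:126781233-126781482 on the plus strand for Tbx6. The Tbx4 start lies inside the span that the gene table gives for Tbx4, so another start lies upstream of it. T had 2 matches to GGTGT, at 228 to 224 and at 13 to 9 bases before the start, and the second overlaps an E-box (CANNTG) at 15 to 10. Tbx18 had 1 match, at 217 to 213 bases before the start, and 36.2% of all 32841 windows of this length hold GGTGT. The longer T-box site GGTGTGA, held by 3.33% of all windows, was in none of the 5. TATAAA lay 43 to 38 bases before the Tbx6 start and, on the other strand, 85 to 80 bases before the Tbx4 start, against 12.4% of all windows. Tbx6 alone of the 5 held TGATNNAT (7.69% of all windows). CCAAT was found in T and Tbx18 (33.9% of all windows). AGATAA for GATA factors and CTTTGAT for TCF/LEF factors were in none of the 5, against 9.99% and 3.21% of all windows. The Tbx20 window held none of the motifs searched, E-box included, and was 68.8% G and C with 22 CpG, against medians of 52.4% and 6 over all windows.

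**Figure D1:**
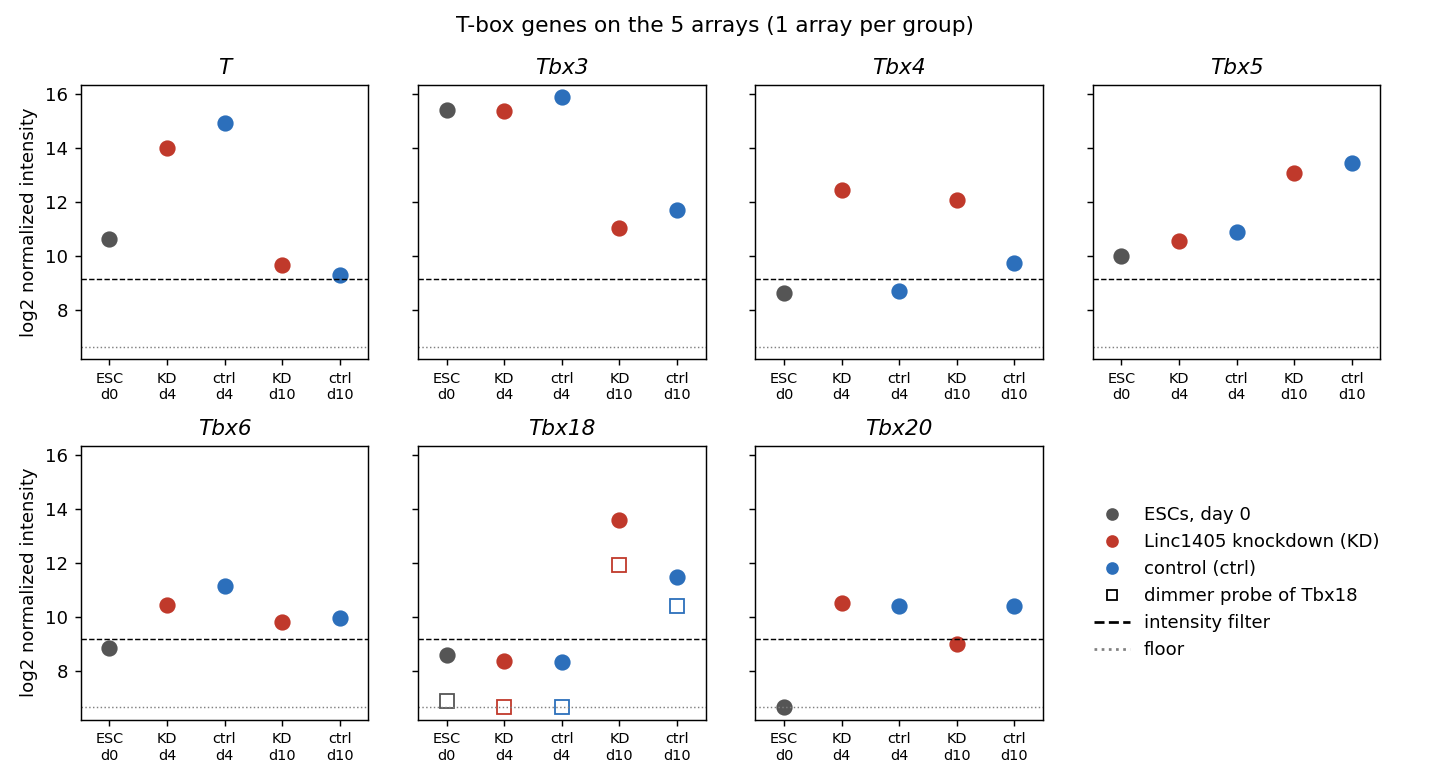
Log2 normalized intensity of the 7 T-box genes (vertical axis) on the 5 arrays (horizontal axis), 1 point for each array, in order ESCs at day 0, knockdown and control at day 4, knockdown and control at day 10. Open squares are the dimmer Tbx18 probe, the dashed line is the intensity filter (log2 9.16) and the dotted line the floor. Tbx4 stands at 12.44 and 12.07 in the knockdown arrays and at 8.68 and 9.74 in the control arrays.

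Over the members, knockdown cells at day 4 had 1 higher (Tbx4) and 0 lower among the 6 past the filter, where 0.804% of all 10699 genes were higher and 1.47% lower (2.27% in either direction). At day 10 knockdown cells had 2 higher (Tbx4 and Tbx18) and 1 lower (Tbx20) among 7, where 2.5% of 10886 genes were higher and 3.61% lower (6.11% in either direction). The median difference of the 7 members was -0.32 at day 4 and -0.14 at day 10, against 0 for all genes at both days. T, Tbx3, Tbx5 and Tbx6 lay within 2-fold at both days, and Tbx18 and Tbx20 did so at day 4.

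**Figure D2:**
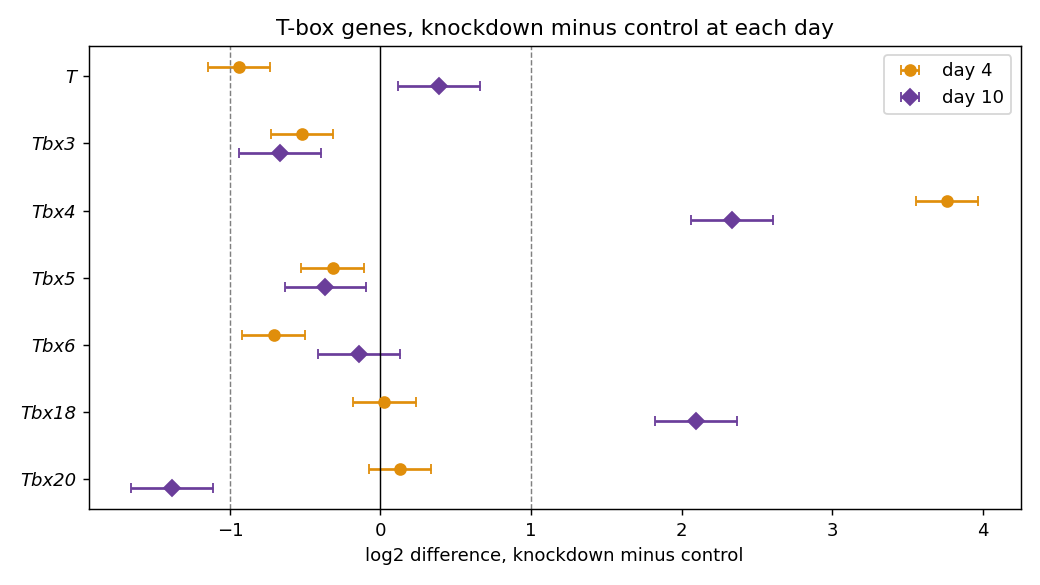
Log2 difference of knockdown minus control cells (horizontal axis) for each T-box gene (vertical axis) at day 4 (circles) and day 10 (diamonds). Bars are 1 between-probe SD to each side, a measure of probe error only, and the dashed lines mark 2-fold. Tbx4 lies past 2-fold at both days, at 3.76 and 2.33, and Tbx18 (2.10) and Tbx20 (-1.39) at day 10 only, with 1 array a group and no test.

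T had a normalized intensity of 1574 in ESCs, 16155 in knockdown and 30953 in control cells at day 4, and 815 in knockdown and 622 in control cells at day 10. Both day 4 arrays were far above the other 3. At day 4 the knockdown array was 1.92-fold below the control array, a log2 difference of -0.94 that is larger than the between-probe SD and just short of 2-fold. At day 10 the difference was 0.39, the other way, at a level near the filter. From day 4 to day 10 T changed by -4.31 in knockdown and by -5.64 in control cells, which makes it the 7th lowest of 11434 genes in the control line.

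Tbx6 shared with T its highest level in control day 4 cells, with a smaller range over the arrays. It had a normalized intensity of 463 in ESCs, 1368 in knockdown and 2235.5 in control cells at day 4, and 900.4 in knockdown and 994 in control cells at day 10. The control day 4 array was the highest and the ESC array the lowest, while for T the day 10 arrays were the lowest. Knockdown minus control was -0.71 at day 4, again beyond the between-probe SD and short of 2-fold, and -0.14 at day 10, within that SD. As deposited, without normalization between arrays, the day 10 difference of Tbx6 was 0.31, where the median of all genes was 0.37.

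Some genes known to act with T and Tbx6 were also lower in knockdown cells at day 4. Of 27 listed genes of the streak and the presomitic mesoderm, 22 were measured and 17 passed the filter, and in knockdown cells 6 were at least 2-fold lower and 2 higher, with a median of -0.39 over the measured genes. The genes 2-fold lower were Sp5 (-2.47), a Wnt target, Dll1 (-1.84), a Notch ligand, Mixl1 (-1.26), a streak homeobox gene, Wnt3, Dll3 and Mesp2. Those higher were Cdx4 (2.01) and Cdx2 (1.71), homeobox genes of the posterior body. Msgn1, a known target of Tbx6 in mouse presomitic mesoderm, had a normalized intensity of 1336 in knockdown and 1271 in control cells, a difference of 0.07. At day 10 only 9 of the 22 passed the filter, with Wnt5b (1.55) and Tcf15 (1.33) higher and Fgf8 (-1.72) and Evx1 (-1.13) lower. As deposited, 4 were lower and 2 higher at day 4. Over all 10699 genes past the filter at day 4, 0.804% were higher and 1.47% lower. Earlier results of these data were known when the list was made, so its counts give T and Tbx6 no independent support. Against ESCs, 10 of the listed genes were higher and 3 lower in control day 4 cells, and 9 were higher and 4 lower in knockdown day 4 cells, and these comparisons share the ESC array.

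Tbx3 was bright in ESCs and at day 4 and dim at day 10. Its normalized intensity was 43732 in ESCs, 41584 in knockdown and 59701 in control cells at day 4, and 2081 in knockdown and 3300.4 in control cells at day 10. The 3 early arrays lay within the between-probe SD of their neighbours in the order, except that knockdown lay below control at day 4 by 0.52. The course from day 4 to day 10 was close in both lines, -4.32 in knockdown and -4.18 in control cells, among the 32 lowest genes of each. At day 10 knockdown was below control by 0.67, short of 2-fold. As deposited, the day 10 difference of Tbx3 was -0.16, where the median of all genes was 0.37.

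The pluripotency genes around Tbx3 took another course. All 13 measured were lower in control day 4 cells than in ESCs, with a median of -4.83, while Tbx3 differed by 0.45. Esrrb and Klf4, factors of the naive stem cell state, had normalized intensities of 487 and 5392 in control day 4 cells and of 78723 and 52097 in ESCs. Knockdown minus control at day 4 had 1 of the 7 past the filter lower, Tfcp2l1 (-1.15), and 0 higher. Fibroblast and feeder markers were mixed. Of 6 measured, 3 passed the filter, with 2 lower and 1 higher in control day 4 cells than in ESCs. Dcn and Postn, the lower ones, had normalized intensities of 490.2 and 608 in control day 4 cells and of 14223 and 13977 in ESCs. Pdgfra, the higher one, had 8067 in control day 4 cells and 903 in ESCs. Col3a1 was under the floor in both, and Col1a1 and Lum were below the filter. The part of feeder cells in the ESC level of any T-box gene was not tested.

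Tbx4 differed most between the lines. It had a normalized intensity of 390.4 in ESCs, 5576 in knockdown and 411 in control cells at day 4, and 4306 in knockdown and 855 in control cells at day 10. Both knockdown arrays were above the 3 others, and they lay within the between-probe SD of each other. Knockdown minus control was 3.76 (13.6-fold) at day 4, the 2nd highest of 10699 genes past the filter, and 2.33 (5.03-fold) at day 10, the 42nd highest of 10886. The ESC and control day 4 values were below the filter, so Tbx4 was counted as higher in knockdown day 4 cells than in ESCs (3.84), while in control day 4 cells it stayed below the filter (0.08). From day 4 to day 10 Tbx4 was counted as higher in control cells, by 1.06, and it differed by -0.37 in knockdown cells. That difference of 1.06 fell short of 2-fold at 0.18 in the deposited values and at 0.88 when arrays were scaled by their 75th percentile.

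Genes of the limb field and the allantois were listed beside Tbx4. Of 22 genes 21 were measured, and in knockdown cells 6 of the 17 that passed the filter at day 4 stood 2-fold or more above control and 0 below, with a median of 0.50 over the measured genes. Pitx1 (3.04), a hindlimb factor known to act upstream of Tbx4 in the mouse, Hoxc9 (2.51), Hoxd9 (2.20) and Itga4 (2.18), an integrin that binds Vcam1, led them, and Vcam1 itself differed by -0.21 with both arrays below the filter. At day 10, 8 of 19 were higher and 0 lower, led by Hoxa10 (4.25), Hoxa11 (3.93), which was at least that much higher because the control array was at the floor, Hoxd10 (3.05) and Hoxd9 (2.40), with Pitx1 at 1.12. Fgf10, which limb mesenchyme sends to the overlying ectoderm and which the day 10 medium also contained as protein, differed by -0.56 and 0.42. Several of these genes had been seen to stand apart before the list was made, so their counts do not support the Tbx4 values independently.

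Markers of other cell types also differed at day 4, beside the streak and limb genes. Of 4 measured blood genes 2 were higher in knockdown cells and 0 lower, with a median of 0.93: Klf1 (1.32), a red cell factor, and Alas2 (1.32), an enzyme of haem synthesis. Summed over the 4 measured blood genes, the normalized intensity was 33684 in knockdown and 27560 in control cells. Most of each sum was Tal1 (19929 in knockdown and 20912 in control cells), which differed by -0.07. Of 6 endothelial genes 1 was lower, the receptor gene Tie1 (-1.15), and 0 higher, with a median of -0.56 and sums of 16147 in knockdown and 28356 in control cells. Most of each endothelial sum was Kdr (11506 in knockdown and 21725 in control cells), which differed by -0.92, short of 2-fold. Of 5 measured neural genes 1 was lower, Otx2 (-2.90), a homeobox gene of the anterior brain and the early epiblast, and 0 higher, with sums of 4030.3 in knockdown and 5858 in control cells. Otx2 itself had 291 in knockdown and 2167 in control cells. Nes (-0.13) and Pax6 (-0.19, below the filter) also lay below 0, while Sox1 (0.69) and Map2 (0.04) lay above it. No gene of these 3 lists was at the floor in either day 4 array, and their part in the T, Tbx6 and Tbx4 differences was not tested.

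Tbx5 was highest at day 10. Its normalized intensity was 1029 in ESCs, 1517 in knockdown and 1890.5 in control cells at day 4, and 8665 in knockdown and 11164 in control cells at day 10. Each knockdown array lay a little below its control, by 0.32 at day 4 and 0.37 at day 10, more than the between-probe SD and well short of 2-fold. From day 4 to day 10 Tbx5 changed by 2.51 in knockdown and by 2.56 in control cells. As deposited, Tbx5 differed by 0.14 at day 10, where the median of all genes was 0.37.

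Tbx20 parted the lines at day 10. It was at the floor in ESCs, at 1462.5 in knockdown and 1337 in control cells at day 4, and at 513 in knockdown and 1339.8 in control cells at day 10. The knockdown day 10 array was below the filter of 572 and below the other 3 differentiated arrays. Those 3 lay within the between-probe SD of their neighbours in the order. Knockdown minus control was 0.13 at day 4 and -1.39 (2.61-fold lower) at day 10. Against the floor of the ESC array Tbx20 was higher by at least 3.87 in knockdown and at least 3.74 in control day 4 cells. From day 4 to day 10 it changed by -1.51 in knockdown cells, while in control cells the 2 days differed by 0.0030.

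Of 26 listed cardiac partners and targets of Tbx5 and Tbx20, 19 were measured and 16 passed the filter at day 10. In knockdown cells 5 were at least 2-fold lower and 0 higher, with a median of -0.44 over the measured genes: Cacna1c (-1.91), the cardiac L-type calcium channel, Atp2a2 (-1.52), the calcium pump of the sarcoplasmic reticulum, Nppa (-1.41), a natriuretic peptide gene that Tbx5 can activate, Hopx and Nppb. Gata6 (0.68), Gata4 (0.28) and Hand2 (0.43) lay on the other side of 0. At day 4 none of the 14 past the filter stood 2-fold apart. As deposited, the day 10 counts were 2 lower and 2 higher. Over all 10886 genes past the filter at day 10, 2.5% were higher and 3.61% lower. These list counts give Tbx5 and Tbx20 no independent support, because earlier results of these data were known when the list was made. The sarcomere genes had 6 of 9 lower and 1 higher, Tnnt2 (3.05), at the same day, and the part of cardiomyocyte number in the Tbx20 difference was not tested.

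Tbx18 was measured by 2 probes that ran alike. The brighter had a normalized intensity of 382 in ESCs, 329.6 in knockdown and 324 in control cells at day 4, and 12074 in knockdown and 2823 in control cells at day 10. The dimmer had 118 in ESCs, values under the floor at day 4 in both lines, and 3808 in knockdown and 1356 in control cells at day 10. On both probes the day 10 arrays were above the 3 early ones and knockdown was above control. Knockdown minus control at day 10 was 2.10 (4.28-fold) on the brighter probe and 1.49 on the dimmer. At day 4 both arrays were below the filter, with a difference of 0.03 on the brighter probe. From day 4 to day 10 Tbx18 changed by 5.20 in knockdown and by 3.12 in control cells.

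Most of the epicardium list was higher beside Tbx18 at day 10. All 12 genes were measured and 11 passed the filter, of which 8 were at least 2-fold higher in knockdown cells and 0 lower, with a median of 1.69. Sema3d (2.72), a secreted semaphorin, Wt1 (2.61), a zinc finger factor of the epicardium, Upk3b (2.39), an uroplakin of mesothelium, and Aldh1a2 (2.38), a retinoic acid synthase, led them, while Krt19, a keratin, differed by 0.05. Fibroblast markers were level at day 10, with 0 of the 5 past the filter 2-fold apart and a median of -0.08 over the 6 measured. The part of epicardial cell number in the Tbx18 difference was not tested. Over all 10886 genes at that day, 2.5% were higher and 3.61% lower. The list was made with earlier results of these data known, so its counts do not support the Tbx18 values independently.

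Tbx3 and Tbx18 are both known from the sinus node, and genes of the node were listed beside them. Of 12 listed, 11 were measured and 8 passed the filter at day 10, with 4 lower in knockdown cells and 0 higher and a median of -0.69: Kcnj5 (-2.01), a potassium channel, Cacna1d (-1.70), a calcium channel of pacemaker cells, Shox2 (-1.31), a homeobox factor of the node, and Vsnl1 (-1.02). Cacna1g, a T-type calcium channel, differed by 0.94, Gjc1, a gap junction protein, by 0.17 and Bmp4 by 0.0056. Shox2 had a normalized intensity of 762 in knockdown and 1883 in control cells at day 10 and was under the floor in both lines at day 4. Hcn4, the pacemaker channel that defines the node, was under the floor on all 5 arrays. In the deposited values 1 gene of the list was lower and 1 higher, and after scaling by the 75th percentile 3 were lower and 1 higher. Of all 10886 genes past the filter at day 10, 2.5% were higher and 3.61% lower. This list too was made with earlier results known, so its counts do not bear independently on Tbx3 and Tbx18.

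**Figure D3:**
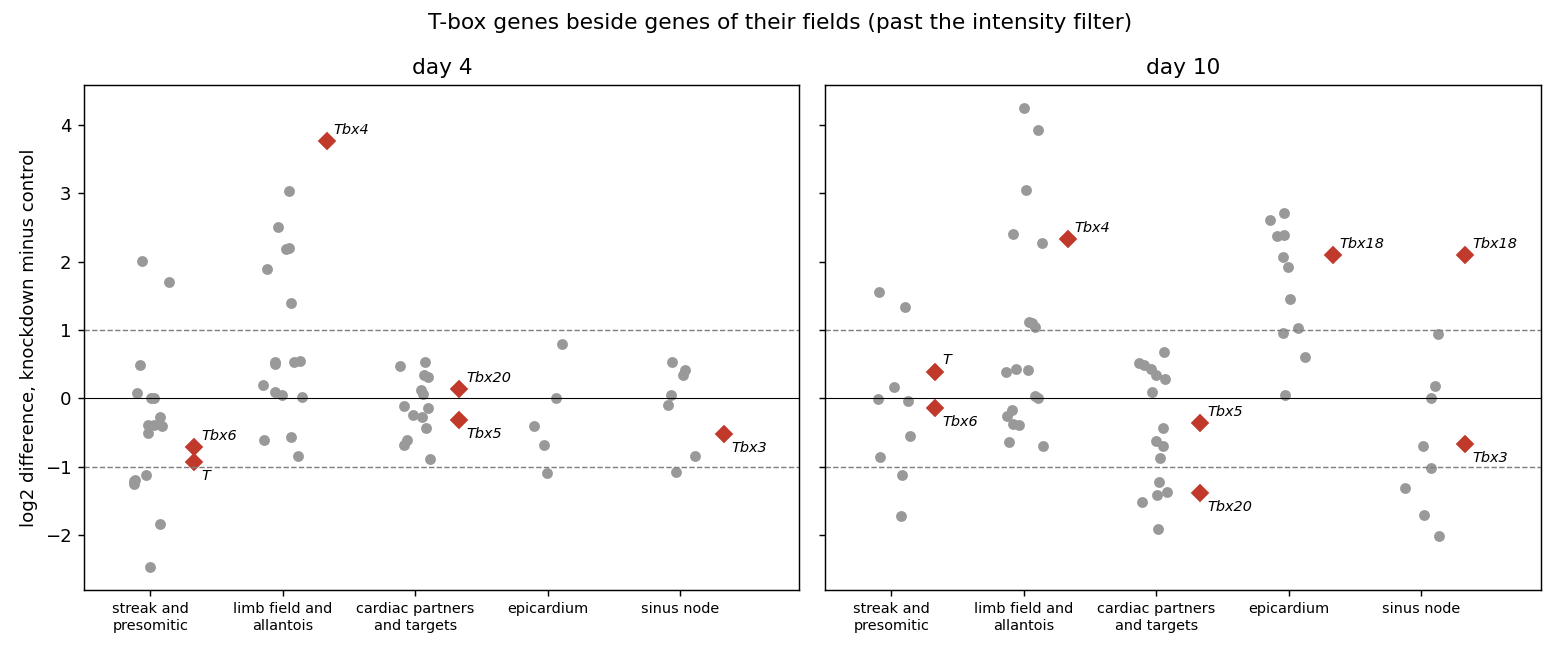
Log2 difference of knockdown minus control cells (vertical axis) at day 4 (left) and day 10 (right) for the genes of 5 lists (grey points, genes past the intensity filter, spread sideways for sight) and for the T-box genes of each list (diamonds). Dashed lines mark 2-fold. At day 4 Tbx4 (3.76) lies above every gene of its list, and at day 10 Tbx18 (2.10) lies within the epicardium points and above the sinus node points.

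All 10 other T-box genes listed were measured, and none stood 2-fold apart between the lines among the 5 past the filter at day 4 or the 3 at day 10. Eomes had a normalized intensity of 4542 in ESCs, 4609 in knockdown and 4126 in control cells at day 4, and 1270.5 in knockdown and 1061 in control cells at day 10. Tbr1, a T-box factor best known from the cortex, and Tbx10 were both lower in control day 10 than in control day 4 cells, by 1.68 and 1.02 on the log2 scale. Tbx2, a repressor of chamber genes in the atrioventricular canal, had 662 in knockdown and 521 in control cells at day 4, and 267 in knockdown and 521 in control cells at day 10. Its day 10 difference of -0.97 had both arrays below the filter. Tbx15, a T-box factor of skin and skeleton, was also below the filter at day 10, at 534.5 in knockdown and 156 in control cells, a difference of 1.78 that counts as higher when the filter is left out. Tbx19, Tbx21 and Mga differed by at most 0.43 at either day, and Tbx1 and Tbx22 lay near or under the floor on every array.

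Tbx4 and Tbx2 are neighbours on chromosome 11, and Tbx3 and Tbx5 on chromosome 5. At day 4 Tbx4 differed by 3.76 while Tbx2 differed by 0.35 and Brip1, the measured gene on the other side of Tbx4, by -0.01. At day 10 Tbx4 differed by 2.33, Tbx2 by -0.97 and Brip1 by 0.11. Tbx3 and Tbx5 ran opposite courses from day 4 to day 10 in both lines (Tbx3 -4.32 and Tbx5 2.51 in knockdown, Tbx3 -4.18 and Tbx5 2.56 in control cells), and Rbm19 and Med13l, which flank the pair, differed between the lines by at most 0.38 at either day. The measured genes nearest to Tbx18, Cep162 and Nt5e, differed by 0.25 and -0.78 at day 10. Those nearest to Tbx20, Bmper and Herpud2, differed by -0.84 and -0.11 at that day, with 4 protein-coding genes not measured between Tbx20 and Bmper.

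Across days 4 and 10, which rest on separate arrays in the 2 lines, the courses of the members differed between the lines to unequal degrees. Tbx3 and Tbx5 took nearly the same course in both lines. T was lower at day 10 than at day 4 in both, while Tbx6 was lower by 1.17 on the log2 scale in control cells and differed by -0.60 in knockdown cells, within the between-probe SD of 0.71. The difference between the lines at day 10, less that at day 4, was -0.14 for Tbx3, -0.05 for Tbx5, 0.57 for Tbx6, 1.33 for T, -1.43 for Tbx4, -1.51 for Tbx20 and 2.07 for Tbx18. None of these values could be tested. In control cells 3 members were higher (Tbx4, Tbx5 and Tbx18) and 3 lower (T, Tbx3 and Tbx6) at day 10 than at day 4, where 19.1% of 11434 genes were higher and 19.4% lower (38.4% in either direction). In knockdown cells 2 were higher (Tbx5 and Tbx18) and 3 lower (T, Tbx3 and Tbx20), where 18.7% of 11416 genes were higher and 18.1% lower (36.8% in either direction). Tbx6 was short of 2-fold after loess in control cells (-0.90) and past it as deposited in knockdown cells (-1.11). Against ESCs, 4 members were higher in knockdown day 4 cells (T, Tbx4, Tbx6 and Tbx20) and 3 in control day 4 cells (T, Tbx6 and Tbx20), and 0 were lower, where 13.7% of all genes were higher in knockdown and 12.8% in control cells, and 28.4% and 26.8% stood apart in either direction.

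**Figure D4:**
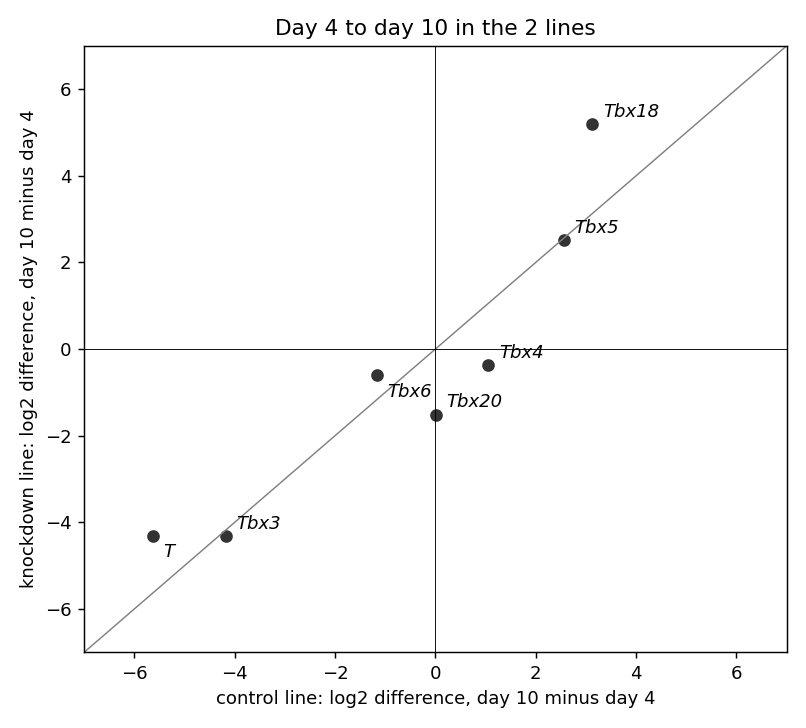
Log2 difference of day 10 minus day 4 for the 7 T-box genes in the knockdown line (vertical axis) and in the control line (horizontal axis), with the line of equal change. Each axis is 1 pair of arrays and the axes share no array. Tbx3 and Tbx5 lie close to the line, Tbx18 (5.20 in knockdown, 3.12 in control), T and Tbx6 lie above it, and Tbx4 and Tbx20 below it.

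Patterns most like those of the members were taken over the 5 arrays as the smallest root mean square distance between log2 levels centred on each gene's own mean, among 11761 genes. The nearest to T were Cdh4, Mixl1 and Six2 (0.34 to 0.46, with a median of 2.31 over all genes). The nearest to Tbx6 were St6galnac4, Slc6a4 and Smad1 (0.054 to 0.18), and to Tbx3 Kbtbd8, Lin28a and Slc1a4 (0.32 to 0.35). Tbx5 ran closest with Prnd, Sox5 and Tek (0.13 to 0.16), Tbx20 with Dach1, Dusp2 and Lrrc4b (0.27 to 0.31), and Tbx18 with Plscr2, Fmod and Mab21l2 (0.14 to 0.30). Tbx4 had no near match, since its nearest genes, Hoxd8, Flrt1 and Hoxc9, lay at 0.83 to 0.89 where the median of all genes was 1.73. Among the members themselves the closest were Tbx6 and Tbx20 (0.92), and Tbx3 and Tbx18 were the farthest apart (4.15). With 5 arrays these distances describe the arrays and do not carry a test.

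The scale of the arrays touches the small differences above. Before normalization the arrays had medians of 344 to 745, and as deposited the median of all genes stood at 0.20 for knockdown minus control at day 4, 0.37 at day 10, 0.17 for control day 4 minus ESCs, -0.72 for control day 10 minus control day 4, 0.41 for knockdown day 4 minus ESCs and -0.58 for knockdown day 10 minus knockdown day 4. Scaled by the 75th percentile, it stood at -0.20 for the last of these. Of the genes counted, the share that was higher in knockdown cells was 35.4% at day 4 and 40.9% at day 10, and as deposited 53.4% and 87.2%. For the control course it was 47.9% against ESCs and 49.6% from day 4 to day 10, and as deposited 64.5% and 16.6%, with 61.6% after loess from day 4 to day 10. For the knockdown course it was 48.3% and 50.9%, and as deposited 73.8% and 24.7%, with 62.6% after loess from day 4 to day 10.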

How the data were processed

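Total RNA of 5 mouse cultures, 1 for each group, was hybridised to single-colour arrays with a Cy5 label, per the labels' protocols. The deposited values are linear intensities, read with Agilent Feature Extraction 10.7.1.1 per the submitters' processing notes. Whether the authors normalized them is not given in these sources. Values at or below 0 occur, as after background subtraction. They were unequal between arrays, with 1050 probes on the knockdown day 10 array and 3 on the control day 10 array. The knockdown day 4 array had 0, the control day 4 array 38 and the ESC array 3.

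Here the 5 arrays were brought to 1 distribution (quantile normalization), floored at 100 and put on a log2 scale (Python 3.11.15, pandas 2.3.3, statsmodels 0.14.6). A single gene symbol was given for 20377 of the 26423 probes, several for 0 and none for 6046. Symbols were updated with a gene table of GRCm38.p6 (2126 by synonym, 38 kept old), and the files name no genome build, so that table served for names and neighbours. The brightest probe stood for a gene. No test was possible with 1 array a group. The steps were tested on simulated data with changes placed in bright genes only, so changes near the intensity filter were not covered. The members, lists and comparisons were chosen with earlier results of these data known. Named are all members and other T-box genes, up to 4 counted genes of a list by size in the comparison described, the 3 nearest patterns and the nearest measured gene on each side. List genes named beyond that were chosen after their values were seen. Alternatives were the deposited scale, scaling to the 75th percentile, loess (span 0.3, 3 iterations), floors of 50 and 200, a 4-fold threshold, the filter left out or raised to the 75th percentile, and the mean of a gene's probes.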

Additional observations from a re-analysis of the deposited data

Results flagged for a closer look

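T was the member whose difference between the lines pointed opposite ways at the 2 days, each time by more than the between-probe SD. Knockdown minus control was -0.94 at day 4 and 0.39 at day 10, so the day 10 difference less the day 4 difference was 1.33 on the log2 scale. It was not tested, since each value rests on 1 pair of arrays, and the day 10 values (815 in knockdown and 622 in control cells) lay close to the intensity filter.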

How the results depend on the processing

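No paired analysis was possible because each group holds 1 array. Of 252 differences of the members under an alternative normalization, floor or probe rule, 233 moved by less than the between-probe SD, 19 moved by more and none that had been counted changed sign. Among the 6 counts of members, 51 of 54 values stayed within 1.5 times. The other 3 came with the filter at the 75th percentile, where 1 member in place of 3 was counted for control day 4 against ESCs, 3 in place of 6 for control day 10 against day 4, and 2 in place of 4 for knockdown day 4 against ESCs. That filter removed Tbx20 from the knockdown comparison at day 10 and left Tbx4 and Tbx18, as did the 4-fold threshold. Tbx20 against ESCs depends on the floor by construction, at 4.71 with a floor of 50 and 2.74 with a floor of 200 in control day 4 cells, and 4.84 and 2.87 in knockdown day 4 cells.

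Over all genes, knockdown against control at day 10 gave 1254 genes as deposited against 665 in the reported setting, and at day 4 367 against 243 without the filter. The filter at the 75th percentile gave 57 against 243 at day 4, 297 against 665 at day 10, 1438 against 3021 and 2496 against 4396 in the control course, and 1548 against 3222 and 2396 against 4201 in the knockdown course, and the 4-fold threshold gave 30, 123, 1108, 1429, 1250 and 1304 in the same order. Of 756 counts over lists, 106 moved by over 1.5 times, 80 of them with the stricter filter or threshold. Genes near the intensity filter, among them Tbx6 in ESCs, T at day 10 and Tbx20 in knockdown day 10 cells, are the least certain.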

Other observations

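At day 10, Prdm14 and Meox1 stood above the floor in knockdown cells and under it in control cells. Prdm14, a regulator of naive pluripotency and germ cells, had a normalized intensity of 9307 in knockdown cells, at least 6.54 higher than control on the log2 scale, and 2653.5 in ESCs. No other of the 13 measured pluripotency genes was counted as higher at that day, and Tfcp2l1 was lower (-1.88). Meox1, a homeobox gene of somites, stood at 510.2 in knockdown cells at day 10, at least 2.35 higher, with its brighter array below the filter.

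Among the measured genes nearest to members, Bmper, a secreted BMP-binding protein, was lower in knockdown cells at day 4. Its normalized intensity was 4510 against 9558 in control cells, a log2 difference of -1.08. Tbx20, its nearest member on chromosome 9, with 4 protein-coding genes not measured between them, differed by 0.13 at that day. Tbx15 was lower at day 4, at 186 in knockdown and 240.0 in control cells, than in ESCs, at 787.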
